A study of Danio rerio with 6 samples.

Results

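Wnt proteins are secreted ligands that bind Frizzled receptors together with the co-receptors Lrp5 and Lrp6. In the canonical branch this stops the breakdown of beta-catenin, which then acts with Tcf and Lef factors on target genes, and in other branches it steers cell polarity and movement. Secreted inhibitors act outside the cell, either by binding the ligand (the sFRP family, which includes Frzb, and Wif1) or by binding the co-receptor (the Dkk family). In the vertebrate trunk these signals take part in growth of the tailbud and in the patterning of neural tube and somites.

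The genes examined were those whose symbol, whatever its case, begins with wnt and a digit, fzd, sfrp, dkk, rspo, lrp5 or lrp6, or is frzb, wif1, axin1, axin2, lef1, tcf7 or ctnnb1. There were 52 such genes among the 24789 in each table, namely 24 ligands, 12 receptors, 11 secreted inhibitors, 2 R-spondins and 3 intracellular or nuclear genes. Many zebrafish genes carry a human name in capitals, shared by duplicated copies, and such copies are given with their Ensembl ID. A further 11 gene names that fit, among them AXIN1, AXIN2, LRP6, WNT5A and WNT5B, were not matched to a gene ID and are not analysed here.

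Messenger RNA was measured in trunks of zebrafish (Danio rerio) embryos at 24 to 26 h after fertilization, with head and yolk removed. The 3 control libraries came from qkia+/+ or qkia+/- siblings injected with a control morpholino, and the 3 loss of function libraries, called qkia/c-deficient below, from qkia-/- siblings injected with qkic morpholino, at 0.6 pmol in both groups. Quaking proteins bind RNA, and the series asks which genes depend on qkia and qkic. Embryos were assigned to groups by their appearance, mutation and morpholino changed together, and how many embryos made up a library is not stated.

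The gene tables corresponded to 38804265 to 44799398 reads per library. The gene qkia (ENSDARG00000097478) had 70, 83 and 58 reads in control replicates 1, 2 and 3, and 6, 7 and 3 in the deficient libraries. Of the genes named QKI, ENSDARG00000010018 had means of 637.3 normalised reads in controls and 330.7 in deficient trunks. ENSDARG00000002026 had 38.4 and 41.9. The shared name does not tell which of them, if either, is qkic. Trunk muscle markers were present, and of the 5 tested 1 rose and 1 fell, beside 21.9% higher and 20.0% lower over all genes. Both were genes named ACTA1 (ENSDARG00000055618, log2 change 0.31, and ENSDARG00000036371, -0.36), while MYOD1 had means of 5513 and 5439.9 normalised reads and did not pass. Replicates of the control group were more spread, with a median coefficient of variation over the tested Wnt genes of 9.98% against 4.74% in deficient trunks. The series calls the libraries biological triplicates without naming separate clutches, so a p-value measures spread among these 6 libraries, which may be partly technical. In whole trunks, fewer cells of a type and less RNA per cell cannot be told apart.

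Of the 52 genes, 45 had a normalised read count of at least 10 in at least 3 libraries and were tested, 44 of them reaching 10 in all 6. Normalised read counts are reads divided by a size factor for the library and are not corrected for gene length, so levels are compared only within a gene. In qkia/c-deficient trunks 8 of the 45 were higher and 5 were lower at a limma adjusted p under 0.05, together 28.9%. Over all 18917 genes tested, 41.9% passed, 21.9% higher and 20.0% lower. By mean level, 1 of 10 Wnt genes under 50 was called (17.1% of all genes at that level), 3 of 17 from 50 to 500 (38.1%) and 9 of 18 over 500 (57.6%). The median log2 change of the Wnt genes was -0.01, against 0.00 for all genes. The groups did not overlap for 19 of the 45, with the deficient libraries above all controls for 10 genes and below for 9, against 52.1% of all genes (26.8% above and 25.4% below). The number lower was 3 without control replicate 2 or deficient replicate 2, and 2 without deficient replicate 3.

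**Figure D1:**
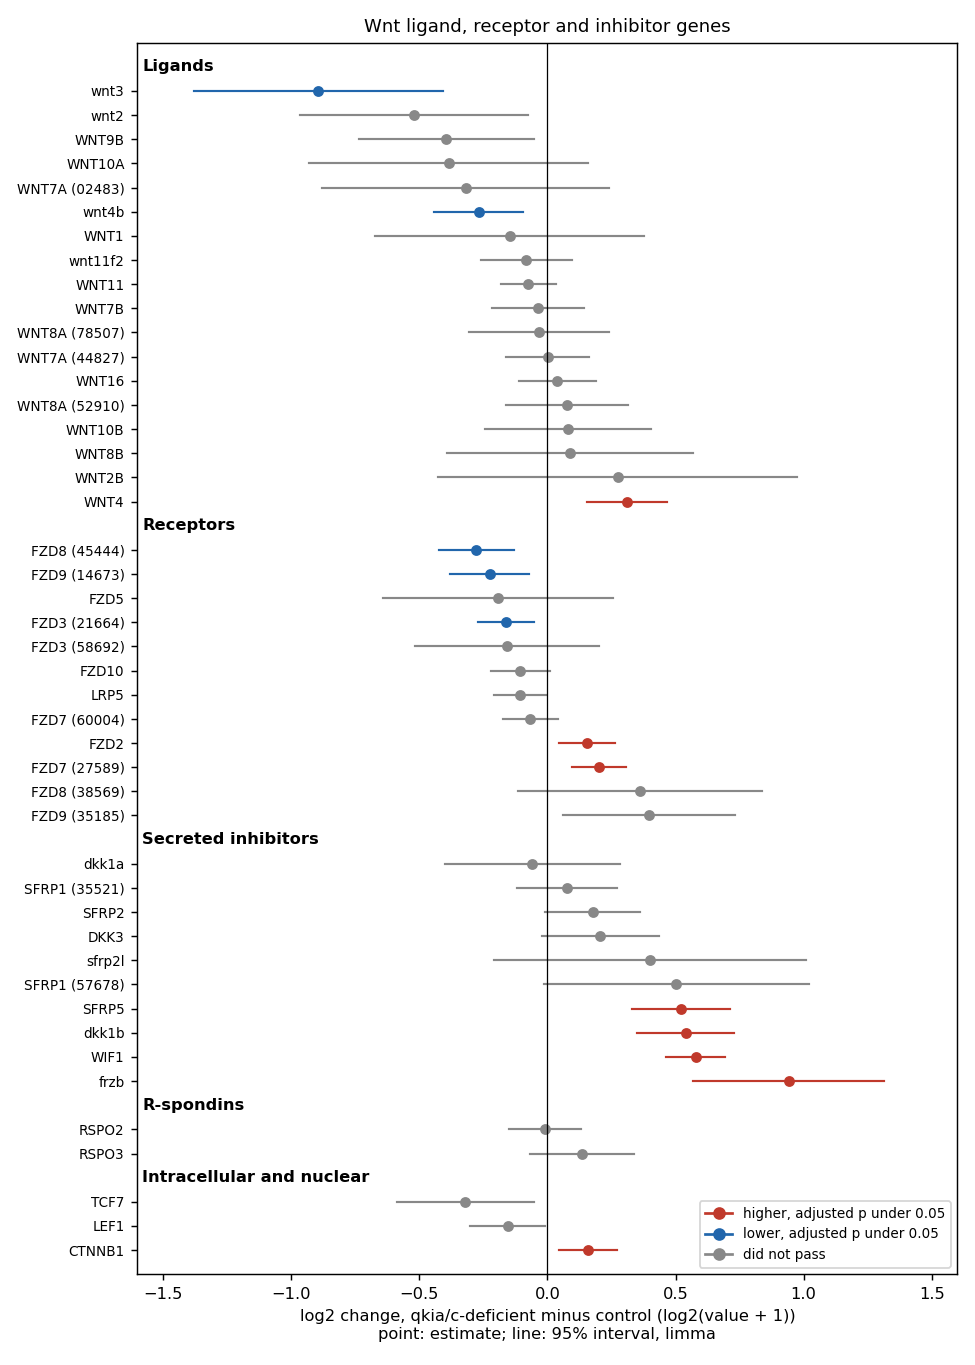
Log2 change of each of the 45 tested Wnt genes by class, as estimate (point) and 95% interval (line); where a name is shared, the last 5 digits of the Ensembl ID follow it. The 4 inhibitors that rose had log2 changes of 0.52 to 0.94, while called receptors lay between -0.28 and 0.20.

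The secreted inhibitors held the 4 largest increases among the tested Wnt genes. WIF1, dkk1b, SFRP5 and frzb rose between 1.43-fold and 1.91-fold, 6 of the 10 tested inhibitors did not pass the test and 0 fell with limma, edgeR or DESeq2. Estimates were above 0 for 9 of the 10, and dkk1a, at -0.06, did not pass at an unadjusted p under 0.05 either. The median log2 change of the 10 was 0.45, against 0.00 for all genes. The share called was 40.0%, near the 41.9% of all genes. In the inhibitors all of these calls were higher, while over all genes 21.9% were higher and 20.0% lower. Changes of at least 0.5 on the log2 scale that passed the test made up 13.3% of all genes, and among the 45 Wnt genes 4 genes rose and 1 fell by that much. No Wnt gene passed with a log2 change of 1 or more, a size reached by 2.93% of all genes.

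WIF1, which binds Wnt ligands directly, had 1029, 997 and 1065 normalised reads in control replicates 1, 2 and 3, and 1557, 1517 and 1543 in deficient replicates 1, 2 and 3. The groups were far apart and each was narrow, 1030.2 ± 34.0 against 1539 ± 20.3 (SD, n = 3). The increase was 1.49-fold (log2 change 0.58, SE 0.05, limma adjusted p = 5.25e-07).

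The gene dkk1b encodes a Dickkopf protein, which binds the Lrp co-receptors. Its control values were 258, 290.1 and 249, and its loss of function values 409.8, 365 and 384. The lowest deficient library was above the highest control, and the log2 change was 0.54 (SE 0.09, limma adjusted p = 1.50e-04). Its copy dkk1a had 73.2, 98.7 and 96.4 in controls and 90.7, 74.2 and 91.4 in deficient trunks, overlapping, with a log2 change of -0.06 (95% interval -0.40 to 0.28).

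SFRP5, a secreted Frizzled-related protein that binds Wnts, had 301, 378 and 304 in controls and 462, 469 and 475 in deficient trunks. Control replicate 2 was the highest control and still below all 3 deficient libraries. Its log2 change was 0.52 (SE 0.09, limma adjusted p = 2.24e-04).

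The gene frzb, also known as the third sFRP gene, had 46.7, 47.4 and 69.0 in controls and 116, 98.0 and 98.1 in deficient trunks. Control replicate 3 lay nearest to the deficient libraries, without overlap. The gene rose 1.91-fold (log2 change 0.94, SE 0.18, limma adjusted p = 4.19e-04), on 48 to 68 reads in controls and 88 to 116 in deficient trunks.

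The other tested inhibitors did not pass. SFRP2, the most abundant of them by read count, had 940.4, 692 and 782 in controls and 875, 950.4 and 885 in deficient trunks. Control replicate 1 overlapped the deficient range, and without it the log2 change went from 0.18 (limma adjusted p = 0.116) to 0.29 (0.00536). DKK3, a divergent Dickkopf gene, had a log2 change of 0.21 (limma adjusted p = 0.139), which passed without control replicate 2 (0.32, adjusted p = 0.0219). The SFRP1 copies had 0.08 (ENSDARG00000035521) and 0.50 (ENSDARG00000057678, on means of 22.6 and 32.2). The second of these was higher without overlap and did not pass (limma adjusted p = 0.110). For sfrp2l the log2 change was 0.40 with an interval of -0.21 to 1.01.

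**Figure D2:**
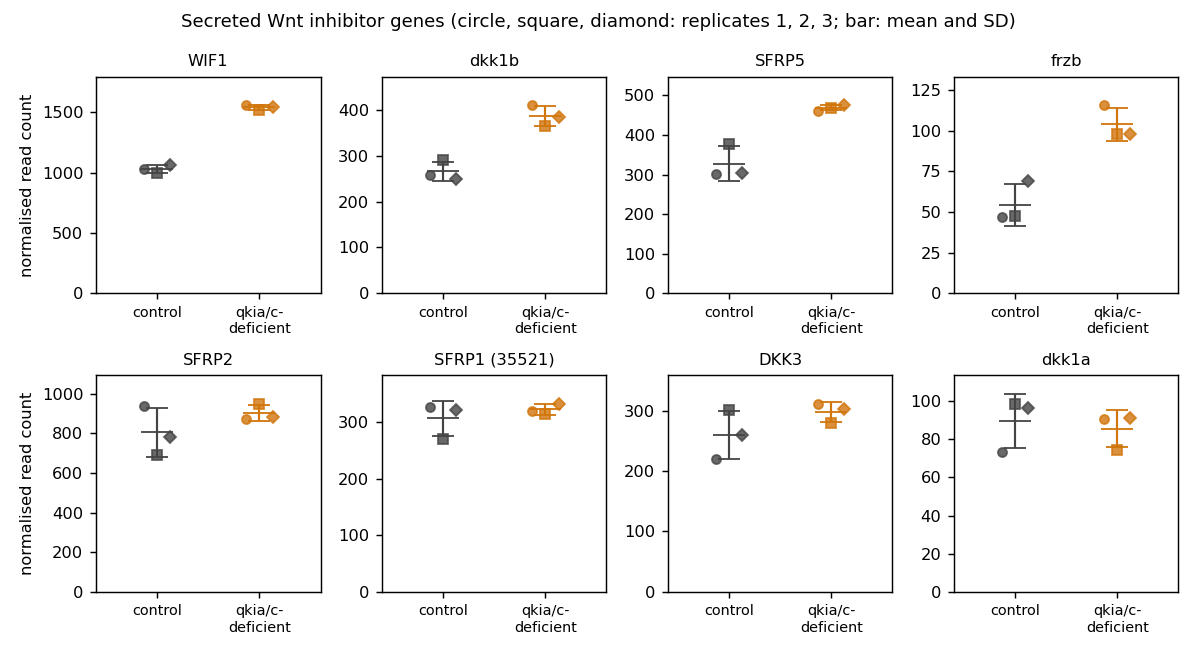
Normalised read count of 8 secreted inhibitor genes in each library, with mean and SD of 3 libraries per group; the number after SFRP1 is the end of its Ensembl ID. For WIF1, dkk1b, SFRP5 and frzb the deficient libraries lie above all controls. For SFRP2, DKK3, dkk1a and the SFRP1 copy shown (ENSDARG00000035521) the groups overlap.

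Of the 18 tested ligand genes, 1 rose, 2 fell and 15 did not pass, with a median log2 change of -0.05. The share called was 16.7%, beside 41.9% of all genes. Several of the 18 had a mean under 50, a level at which 17.1% of all genes were called. The largest change was that of wnt3, a canonical ligand. Its values were 50.2, 59.2 and 42.6 in controls against 24.9, 21.8 and 34.6 in deficient trunks. Every deficient library was below every control, and the gene fell 1.87-fold (log2 change -0.89, SE 0.23, limma adjusted p = 0.00491), on 22 to 60 reads per library.

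The genes WNT4 and wnt4b, duplicated copies of a ligand, moved in opposite directions. WNT4 had 803, 949 and 999 in controls and 1147, 1085 and 1169.5 in deficient trunks, without overlap (log2 change 0.31, SE 0.07, limma adjusted p = 0.00281). For wnt4b the values were 581, 602 and 493 in controls and 479, 465 and 444 in deficient trunks, also without overlap (log2 change -0.27, SE 0.08, limma adjusted p = 0.0148). The call of wnt4b did not hold without control replicate 1 (limma adjusted p = 0.0526), control replicate 2 (0.0555) or deficient replicate 3 (0.0695).

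WNT11, a ligand known for cell polarity and movement, had the highest read count of the ligands that did not pass. It had 4409, 4805 and 4782 in controls and 4498, 4520.15 and 4274 in deficient trunks, overlapping, with a log2 change of -0.07 (95% interval -0.18 to 0.03). The related wnt11f2, which steers convergence and extension in the zebrafish gastrula, had -0.08 (-0.26 to 0.09).

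For wnt2 and WNT9B the deficient means were lower without passing the test. The log2 change of wnt2 was -0.52 (limma adjusted p = 0.0575), and -0.68 (0.0177) without control replicate 3 or -0.66 (0.0401) without deficient replicate 1. That of WNT9B was -0.39 (0.0602), and -0.61 (0.00149) without control replicate 2, in which it had 108 against 175 and 165 in the other two controls. With all 6 libraries, wnt2 and WNT9B both passed under a replicate block, and WNT9B also with edgeR. The remaining 11 ligand genes that did not pass had log2 changes from -0.38 (WNT10A) to 0.27 (WNT2B). Among them WNT1 (-0.15, 95% interval -0.67 to 0.38) and WNT8B (0.09, -0.39 to 0.57) had means near 50 and wide intervals, while those of WNT16 (0.04, -0.11 to 0.19) and WNT7B (-0.04, -0.22 to 0.14) were narrow.

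The 7 genes too low to test were 6 ligands and 1 inhibitor, with 1 to 13 reads per library. WNT3A had 9, 9 and 7 reads in controls and 2, 8 and 4 in deficient trunks. WNT6 had 5, 5 and 6 reads against 13, 8 and 5. The others, WNT9A, wnt2ba, wnt6a, wnt7ba and dkk2, overlapped between the groups as well, so no difference was detectable at this depth.

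Receptor genes that passed the test changed little. Of 11 Frizzled genes and LRP5, 3 fell, 2 rose and 7 did not pass, with log2 changes of the called genes between -0.28 and 0.20. Together 41.7% were called, as against 41.9% of all genes. Most of these receptor genes had a mean over 500, a level at which 57.6% of all genes were called. The largest change of a called receptor gene was 1.21-fold.

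FZD7 (ENSDARG00000027589) had 2049, 2132 and 2156 in controls and 2400.2, 2483 and 2399 in deficient trunks. The groups did not overlap, and the change was 0.20 on the log2 scale (SE 0.05, limma adjusted p = 0.00382). FZD8 (ENSDARG00000045444) had 1129, 1349 and 1184 in controls and 1044, 1019.7 and 952 in deficient trunks, again without overlap (log2 change -0.28, SE 0.07, limma adjusted p = 0.00386). FZD3 (ENSDARG00000021664), a receptor known from axon guidance and planar polarity, had 2927, 3265 and 3102 in controls and 2768, 2768 and 2757 in deficient trunks.

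The FZD3 gene was lower without overlap (log2 change -0.16, SE 0.05, limma adjusted p = 0.0174). It did not pass without control replicate 2 (adjusted p = 0.0580) or without any one of the deficient replicates 1 (0.0641), 2 (0.0640) and 3 (0.0647). FZD9 (ENSDARG00000014673) fell by 0.22 on the log2 scale (limma adjusted p = 0.0194), but not without control replicate 2 (0.0852) or deficient replicates 2 (0.0889) or 3 (0.0576). FZD2 rose by a log2 change of 0.15 (0.0250), but not without control replicate 1 (0.0754) or deficient replicates 1 (0.105), 2 (0.0765) or 3 (0.0681).

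The co-receptor LRP5 had 2793, 2742 and 2730.02 in controls and 2519, 2586 and 2576 in deficient trunks, without overlap, and missed the threshold (log2 change -0.11, limma adjusted p = 0.0855). FZD7 (ENSDARG00000060004), with the highest read count of the receptors that did not pass, had 5182, 5741 and 5449.9 in controls and 5253, 5324 and 5040.3 in deficient trunks (log2 change -0.07, 95% interval -0.17 to 0.04). FZD10 had -0.11 (limma adjusted p = 0.130) and passed without control replicate 1 (-0.16, 0.0183) or after quantile normalization (-0.16, 0.0198). The other receptor genes that did not pass were FZD5 at -0.19 and copies of FZD3 (-0.16), FZD8 (0.36) and FZD9 (0.40). That FZD8 copy (ENSDARG00000038569) was higher without overlap, on means of 26.6 in controls and 34.4 in deficient trunks (limma adjusted p = 0.212). The estimates of these FZD8 and FZD9 copies were larger in size than those of the called receptor genes.

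**Figure D3:**
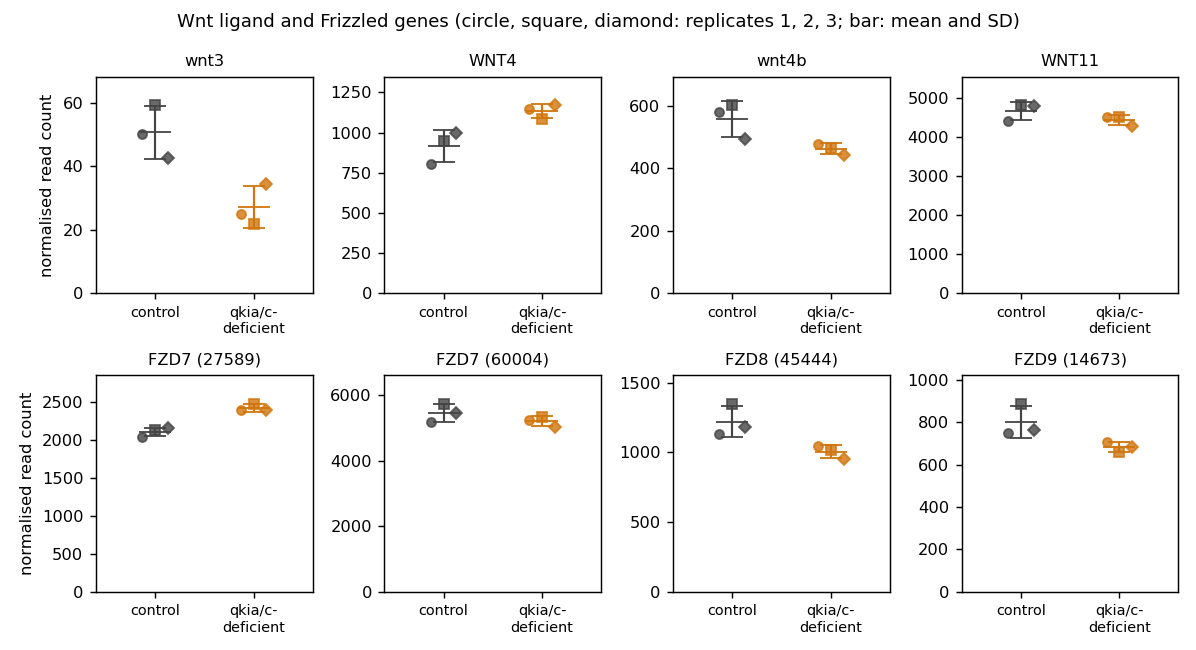
Normalised read count of 4 ligand and 4 Frizzled genes in each library, with mean and SD of 3 libraries per group; numbers after a name are the end of the Ensembl ID. Deficient libraries lie below all controls for wnt3, wnt4b, FZD8 and FZD9, above them for WNT4 and the first FZD7, and overlap them for WNT11 and the second FZD7.

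Duplicated copies of a gene could be compared within each library, as the log2 ratio of the more abundant copy to the other. Of 12 such pairs, 9 had both copies tested, and in 6 of these the ratio did not overlap between the groups. The share over other pairs of copies was not computed, and 52.1% of all single genes tested did not overlap. The 6 therefore cannot be read as particular to Wnt genes. With 3 libraries a side, an exact permutation test (2-sided) can reach no less than p = 0.1, which those 6 pairs reached (0.15 after Benjamini-Hochberg adjustment over the 9 pairs). This test therefore cannot pass the threshold for any pair, and no other test of the ratios was run.

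The ratio of WNT4 to wnt4b was 0.47, 0.66 and 1.02 in controls and 1.26, 1.22 and 1.40 in deficient trunks (log2). That of dkk1b to dkk1a was 1.81, 1.55 and 1.36 in controls and 2.16, 2.28 and 2.06 in deficient trunks. For FZD9 the ratio of ENSDARG00000014673 to ENSDARG00000035185 was lower in deficient trunks by a log2 difference of -0.62, and the less abundant copy alone had a log2 change of 0.40 (limma adjusted p = 0.0543; 0.0189 without control replicate 1). With all 6 libraries, that FZD9 copy passed under a filter on a mean of at least 50, quantile normalization or a replicate block. The ratios of the FZD8, SFRP1 and FZD7 pairs differed by -0.64, -0.43 and -0.27, and those of WNT7A, WNT8A and FZD3 overlapped. The sources used here do not say how reads that fit several near-identical copies were assigned, so single copies are uncertain.

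**Figure D4:**
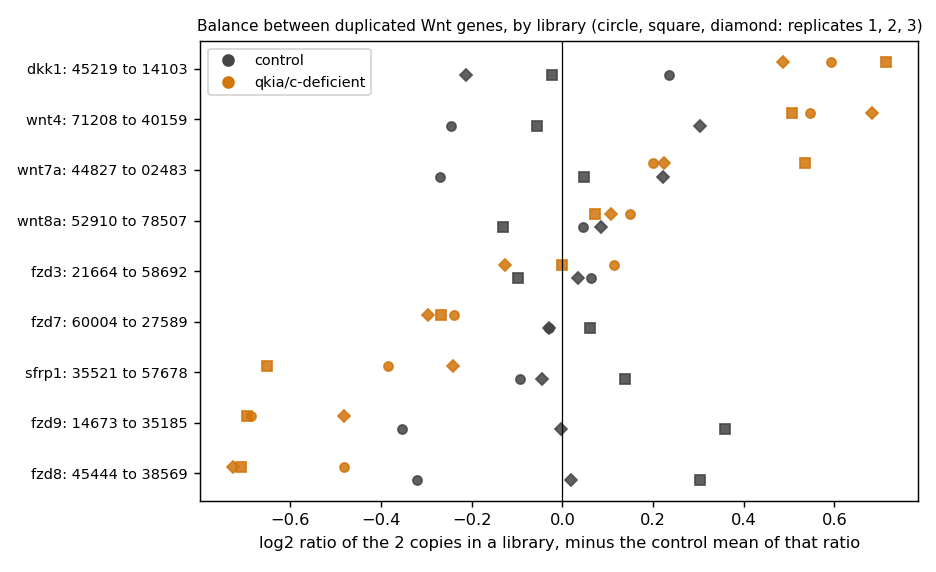
Log2 ratio of duplicated Wnt genes in each library, after subtracting the control mean of that ratio, with the ends of the Ensembl IDs of the 2 copies beside each pair. In the dkk1 and wnt4 pairs the deficient libraries lie to the right of all controls, in the fzd7, fzd8, fzd9 and sfrp1 pairs to the left, and in the other pairs they overlap.

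Inside the cell, CTNNB1, which encodes beta-catenin, rose slightly. It had 25280.3, 26867 and 27531 in controls and 30505, 29162 and 29245 in deficient trunks, without overlap (log2 change 0.16, SE 0.05, limma adjusted p = 0.0240). After quantile normalization the log2 change was 0.01 (0.892). The call also ended without control replicate 1 (0.0572) or deficient replicates 1 (0.134), 2 (0.0757) or 3 (0.0692).

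LEF1 and TCF7 encode the DNA-binding partners of beta-catenin, and both are themselves known as Wnt targets. LEF1 had 666, 692 and 749 in controls and 639, 652 and 601 in deficient trunks, lower in every library without passing the test (log2 change -0.15, limma adjusted p = 0.0851). It passed without control replicate 1 (-0.19, 0.0497). TCF7 had 171, 179.6 and 205 in controls and 175, 137 and 135 in deficient trunks. Deficient replicate 1 lay among the controls, and the log2 change of -0.32 did not pass (0.0509). TCF7 passed without control replicate 1 (-0.38, 0.0472) or deficient replicate 1 (-0.44, 0.0207). With all 6 libraries it passed under TMM scaling, a filter on a mean of at least 50 or a replicate block.

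R-spondins strengthen Wnt signals by removing the ubiquitin ligases Znrf3 and Rnf43 from the cell surface. RSPO2 had 602, 567 and 599 in controls and 585, 583 and 589 in deficient trunks, a log2 change of -0.01 with a 95% interval of -0.15 to 0.13. RSPO3 had 271, 235 and 273 in controls and 290.2, 298 and 266 in deficient trunks (0.13, -0.07 to 0.34). The groups overlapped for both.

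Further genes of the pathway were taken as 4 lists of 114 genes in all, of which 109 were tested, 17 rose and 32 fell. One of the 17, cd44a, was tested only because of its values in the deficient libraries. That is 49 of 109, beside 41.9% of all genes tested, 21.9% higher and 20.0% lower. ZNRF3, NOTUM and NKD1 are in the list of Wnt targets and in another list as well, and count once in this total. Of 20 tested genes for Wnt secretion and regulation at the cell surface, 3 rose and 6 fell (median log2 change -0.09). The gene with the smallest adjusted p there was draxina, an axon guidance gene whose product also antagonises canonical Wnt signals, from 384 ± 15.1 to 195 ± 7.98 (SD, n = 3; log2 change -0.98, limma adjusted p = 3.28e-07). CTHRC1 (ENSDARG00000087198), a secreted protein that in mouse favours the polarity branch, rose (0.48, adjusted p = 4.99e-06), as did the membrane inhibitor APCDD1L (0.36, adjusted p = 5.17e-04). ZNRF3, the ligase that removes Frizzled receptors, fell (-0.46, adjusted p = 2.94e-04).

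Among the Wnt antagonists of this list of secretion and surface genes, APCDD1L was therefore higher, and draxina and ZNRF3 were lower. The other draxin gene, draxinb, had the largest change of this list, a fall from 31, 24 and 29 reads in controls to 16, 16 and 4 (log2 change -1.26, limma adjusted p = 0.0143). NOTUM, an enzyme that strips the lipid from Wnts, had 153, 141 and 141 in controls and 97.7, 90.1 and 99.2 in deficient trunks (log2 change -0.60, limma adjusted p = 0.00107). It too is a known Wnt target. SOST was lower in every deficient library than in any control and did not pass (-0.18, limma adjusted p = 0.103). KREMEN1 (-0.04) and SOSTDC1 (ENSDARG00000068892, -0.06) did not pass either. The other SOSTDC1 gene (ENSDARG00000056021) was too low to test, with means of 14.0 in controls and 7.23 in deficient trunks.

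Of 37 tested genes of the destruction complex and nuclear factors, 4 rose and 11 fell (median -0.04). Over all genes 21.9% were higher and 20.0% lower. Both TLE3 genes, Groucho-type co-repressors that bind Tcf factors, fell, ENSDARG00000002787 from 7020.3 ± 639.7 to 3955 ± 56.8 (SD, n = 3; log2 change -0.82, limma adjusted p = 2.27e-08) and ENSDARG00000069006 by a log2 change of -0.48 (1.02e-05). The scaffold gene APC fell (-0.34, adjusted p = 2.64e-04), and so did TNKS (ENSDARG00000062897, -0.45, adjusted p = 2.11e-05), whose product tankyrase marks Axin for breakdown. The other TNKS gene (ENSDARG00000077650) did not pass (-0.02, limma adjusted p = 0.887).

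Of 33 genes of planar cell polarity and the calcium branch, 5 rose and 10 fell (median -0.10). Over all genes 21.9% were higher and 20.0% lower. PRICKLE2 (ENSDARG00000037593) rose 2.17-fold, from 1255 ± 117 to 2725 ± 38.3 (SD, n = 3; log2 change 1.12, limma adjusted p = 1.32e-09). The other PRICKLE2 gene (ENSDARG00000020982) did not pass (-0.56, limma adjusted p = 0.140). Of the PRICKLE1 genes, ENSDARG00000040649 rose (0.22, 0.0100) and ENSDARG00000045694 fell (-0.19, 0.0208). The cadherin gene CELSR2 fell 1.72-fold (-0.78, adjusted p = 2.55e-08) and its partner in the polarity complex, VANGL2, 1.44-fold (-0.53, 2.85e-05). NFATC3 (ENSDARG00000076297), a calcium-dependent transcription factor, rose (0.30, adjusted p = 0.00108), while nfatc3b did not pass (-0.09, limma adjusted p = 0.494).

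Of 22 tested genes known as targets of canonical Wnt signalling, 5 rose, cd44a among them, and 7 fell (median -0.01). Over all genes 21.9% were higher and 20.0% lower. Besides ZNRF3 and NOTUM, CYP26A1, which degrades retinoic acid, fell (-0.32, limma adjusted p = 0.00213), whereas FGF8 (ENSDARG00000003399), a growth factor of the tailbud, rose (0.45, 0.00133). The tailbud genes msgn1 (-0.04), tbx6 (0.02) and tbx16 (-0.04) did not pass the test, nor did SP5 (0.08). In the same list cdx4 rose without overlap between the groups (0.40, limma adjusted p = 0.00281). GBX2 (0.30, 0.00738) and msx1b (0.15, 0.0463) rose as well. Lower were CCN1 (-0.23, 0.00319), IRX3 (-0.22, 0.0186), DUSP6 (-0.18, 0.0105) and SP8 (ENSDARG00000011870, -0.17, 0.0242). The other FGF8 (ENSDARG00000039615, 0.06) and SP8 (ENSDARG00000056666, -0.08) genes did not pass.

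**Figure D5:**
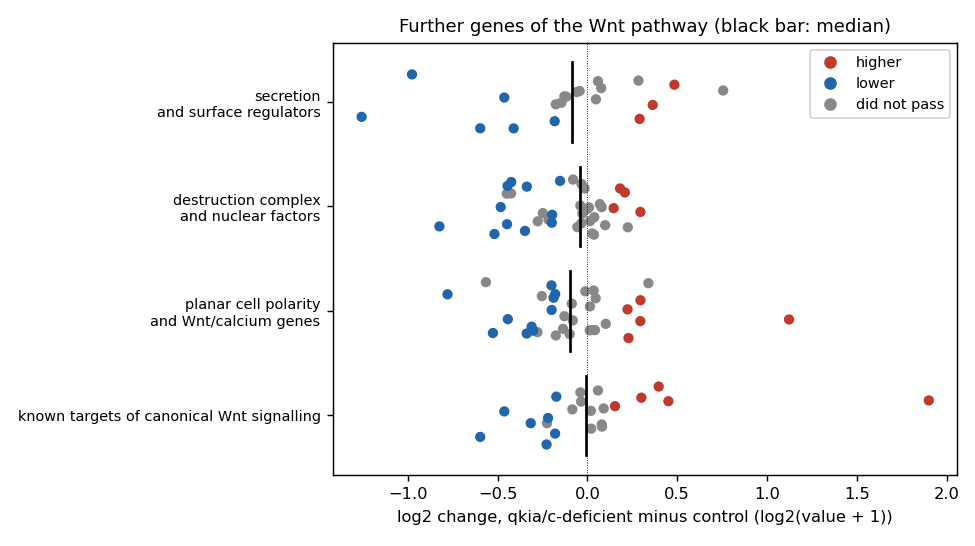
Log2 change of each tested gene in 4 lists of further Wnt pathway genes, with the median of a list as a black bar; colour shows whether the gene passed the limma test. Medians lie between -0.10 and -0.01; the point at 1.90 is cd44a, with 4, 10 and 0 reads in controls and 11, 12 and 14 in deficient trunks, which reached the minimum for testing only through the deficient libraries.

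Markers of several tissues moved in the same libraries, and their part in the results above was not tested. The counts below stand beside 21.9% of all genes higher and 20.0% lower. A summed value mostly follows the most abundant genes of its list. Of 5 spinal cord markers, 4 fell, with a summed value of 7912 to 8787 in controls and 6237 to 6357 in deficient trunks. Of 14 tested markers of head, brain and eye, 3 fell and 1 rose (1320.3 to 1386 against 1203 to 1237). Of 6 markers of the tailbud and presomitic mesoderm, 1 rose and 1 fell, with summed values of 2142 to 2915 against 2425 to 2469. All of these but her1, which fell, are also in the list of Wnt targets above. The marker that rose is the FGF8 gene already given there, so these lists are not separate observations. Of 6 tested notochord markers, 3 rose (26712 to 30434 against 33807 to 34647), and most of that sum was col9a1b (means of 24137.5 and 28686.3). Of 5 markers of fin fold and epidermis, 2 rose, fras1 and and1. The sum over the 5 (619229 to 691647 against 742603 to 785511) was nearly all krt4. That gene had means of 647665 and 755180 and did not pass (limma adjusted p = 0.0877). Of 8 markers of the dorsal neural tube and roof plate, 2 rose and 4 fell (9609.6 to 10358 against 9395 to 9639). Of 4 pronephros markers 2 rose and 1 fell (13635 to 14163 against 13879 to 14062). Most of that sum was SLC20A1 (ENSDARG00000010641, means of 11457.6 and 10603.2), which did not pass. CDH17 (log2 change 0.54) and the other SLC20A1 gene (0.45) rose, and PAX8 fell (-0.78). Of 3 neural crest markers, 1 fell (6648 to 6778 against 6094 to 6229). The largest shift was that of erythroid markers, all 4 tested being higher, by log2 changes of 2.11 to 2.34 (1293 to 3781 against 10937 to 11208). No marker of these lists was at 0 in all 6 libraries, and 2 of the head list and 1 of the erythroid list were at 0 in at least 1.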

How the data were processed

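RNA was taken from 3 control and 3 qkia/c loss of function trunk libraries; per the labels' protocols, 50 bp reads came from libraries that keep no strand, so overlapping genes are not told apart. The deposited values are a normalised signal, in which the reads of a gene were scaled by 1 factor per library, as the values show. Per the submitters' processing notes, build Zv9, Bowtie 0.12.9, STAR 2.4.0j, HTSeq 0.5.3 and DESeq 1.8.3 were used. In every library 100% of values were whole multiples of 1 read (tolerance 0.001 of a read). Symbols were available for 18555 of 24789 IDs.

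The main test was limma 3.58.1 (R 4.3.3, eBayes with trend) on log2(value + 1), 2-sided, for genes with at least 10 in at least 3 libraries, with Benjamini-Hochberg adjustment over all 18917 genes and a threshold of 0.05. The log2(value + 1) scale understates changes of low genes. Alternatives were edgeR 4.0.16 and DESeq2 1.42.0 on recovered reads, pseudocounts 0.5 and 5, other filters and scalings, no trend, a replicate block, and each library left out. The limma, edgeR and DESeq2 tests were tried on simulated data. Of genes changed 1.5-fold there, limma and edgeR recovered 67.2% and DESeq2 61.2%. False calls were 17 of 191 with limma, 21 of 195 with edgeR and 13 of 180 with DESeq2. In that simulation 200 of 18917 genes were changed, far fewer than passed the test in these data. Full values are given for Wnt genes called with a log2 change of at least 0.5, the 3 with the smallest adjusted p per class and the most abundant uncalled one, and further list genes are the 4 with the smallest adjusted p; the other genes named were chosen after their values were seen. Members and lists were chosen with earlier results of these data known. Exon tables were not used.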

Additional observations from a re-analysis of the deposited data

How the results depend on the processing

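Of the 13 called Wnt genes, 6 kept the call and direction under each of the 16 alternatives that tested them: WIF1, dkk1b, SFRP5, frzb, wnt3 (not tested under the filter on a mean of 50) and FZD7 (ENSDARG00000027589). The other 7 lost it under at least 1, and of the 32 not called 11 passed under at least 1. Without the intensity trend, 5 Wnt genes were higher and 1 lower, and 11 and 20 further pathway genes, and WNT4 (limma adjusted p = 0.0515) and FZD8 (0.0527) then missed the threshold. Quantile normalization gave 7 higher and 9 lower Wnt genes, including the 5 lower in the main test. Leaving out single libraries gave 6 to 9 higher and 2 to 7 lower. With edgeR 8 were higher and 6 lower, with DESeq2 8 and 5. The replicate block gave 8 higher and 8 lower. Same-numbered libraries had correlations of -0.0750, 0.00793 and -0.0216 in their deviations from the group means. Differently numbered ones had -0.0479 to 0.0683. With 3 libraries a group these values cannot exclude a shared origin of same-numbered libraries, and the main test did not pair them. Genes under about 50 reads had intervals too wide to show small changes, and the cause of the other differences between settings was not tested.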

Other observations

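Of the 37 tested genes of the destruction complex and nuclear factors, 15 passed the test, beside 41.9% of all genes. Of these, 4 rose and 11 fell. The 4 that rose were BCL9L (log2 change 0.29, limma adjusted p = 8.47e-04), pygo2 (0.21, 0.00254), CTNND1 (0.18, 0.0487) and CTNNBIP1 (0.15, 0.0285). Further members, picked out here after their values were seen, are given next. Besides APC, the related APC2 fell (log2 change -0.52, limma adjusted p = 0.00764), as did AMER2 (-0.35, adjusted p = 0.0146) and the casein kinase gene csnk1e (-0.20, adjusted p = 0.0421). The 4 Dishevelled genes had log2 changes from -0.45 for the rare DVL1 copy ENSDARG00000055552 (means of 16.8 and 12.1) to 0.04 for DVL3, and did not pass. GSK3B, the kinase that marks beta-catenin for breakdown, had 5146 in controls and 5140.2 in deficient trunks (log2 change 0.00, limma adjusted p = 0.997). The second beta-catenin gene, ctnnb2, had a log2 change of -0.08 (adjusted p = 0.245), where CTNNB1 had 0.16. The Tcf genes TCF7L2 (-0.20, adjusted p = 0.0146) and TCF7L1 (ENSDARG00000038159, -0.15, adjusted p = 0.0243) fell, and tcf7l1b had 0.07 (adjusted p = 0.270).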
